A study of Arabidopsis thaliana with 8 samples.

Results

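Roots of uri mutant Arabidopsis thaliana were set against wild-type (WT) roots while both had iron. The comparison used 4 of the 8 arrays of the series, 2 of uri +Fe roots and 2 of WT +Fe roots. These arrays were taken by the genotype and iron supply in their sample titles. The comparison itself was chosen with earlier results of these data known. It is described over the 21180 probe sets, of 22746 tested, that the array annotation assigns to exactly 1 gene. Plants of both genotypes grew for 14 days on half-strength B5 medium and were then moved for 3 days to agar medium with 50 µM Fe(III)-EDTA (+Fe) or with 300 µM of the iron chelator ferrozine (−Fe). The groups were therefore uri with Fe(III)-EDTA, WT with Fe(III)-EDTA, arrays labelled uri with ferrozine and WT with ferrozine, with 2 biological replicates each. The ecotype, the nature of the uri allele, and where the probes lie relative to the mutation are not given in the sources used here. Whether replicates were separate cultures of many pooled seedlings is also not given. Standard errors (SE) and p-values therefore measure only the spread between these samples. That spread was pooled over all 8 arrays, the −Fe arrays included, and the number of arrays limits every value.

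URI, also called bHLH121, is a basic helix-loop-helix transcription factor that acts near the top of the iron-deficiency cascade of the root. With subgroup IVc bHLH partners it activates the subgroup Ib bHLH genes, which act with FIT on the ferric reductase, the iron importer IRT1 and the synthesis of iron-mobilising coumarins. That cascade is normally quiet in roots supplied with iron. The comparison with iron therefore asks how uri and WT roots differ before any deficiency is imposed.

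Values are log2 probe-set intensities, compared only within a probe set, and a log2 difference of 1 is a 2-fold difference. Across genotypes with iron, 87 to 210 probe sets differed at least 2-fold between single arrays, against 18 within the uri +Fe pair and 18 within the WT +Fe pair. The uri +Fe pair was the looser one in correlation (r = 0.9938, against 0.9954 for the WT +Fe pair), and uri +Fe array 1 correlated slightly better with WT +Fe array 2 (0.9945) than with its own replicate. Both −Fe pairs were tighter, with 0 (WT −Fe) and 4 (uri −Fe) probe sets at least 2-fold apart. The shared estimate of spread draws on those tighter pairs too. For most named genes, a call lost with 1 +Fe array left out is given as lost below, though not always for every array. Root hair genes (13 of 13) and Casparian strip genes (9 of 9) of the lists had a mean above the lower quartile of all values (4.72) in both groups. Nuclear photosynthesis genes were measured as well. Their summed linear intensity over 30 genes was 9374 to 10076 on uri +Fe arrays and 10645 to 11686 on WT +Fe arrays.

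Of the 21180 single-gene probe sets, 683 (3.22%) were called in limma's moderated test at an adjusted p under 0.05, 291 higher (1.37%) and 392 lower (1.85%) in uri +Fe than in WT +Fe. The changes were mostly modest. The median size among called genes was 0.67 on the log2 scale, and 52 genes were at least 2-fold higher (0.246%) and 48 at least 2-fold lower (0.227%). The 2 uri arrays lay above both WT arrays for 21.4% of all single-gene probe sets and below both for 19.8%, so separation of the arrays alone marks little. Over all 22746 probe sets 709 (3.12%) were called, 304 higher (1.34%) and 405 lower (1.78%), of which 54 (0.237%) and 50 (0.22%) were at least 2-fold. At an unadjusted p under 0.05 in limma's test were 3648 of the 22746. From the +Fe arrays alone, with their own estimate of spread, 295 were called. The 709 became 179 without WT +Fe array 1, 415 without WT +Fe array 2, 1379 without uri +Fe array 1 and 313 without uri +Fe array 2. Falls outnumbered rises in the full data, but rises outnumbered falls without WT +Fe array 2 (251 to 164) and without uri +Fe array 2 (179 to 134). Of the 100 genes called at 2-fold or more, 72 kept their call in all alternatives run. Genes below were named by a rule of size, and further called members of the lists and of 5 gene families were named after their values had been seen. Of 129 called genes followed in this way beside URI, 68 lost their call without at least 1 of the 4 +Fe arrays. The calls lost without a −Fe array, which enters only through the shared estimate of spread (29 genes, adjusted p of 0.0512 to 0.102), with the +Fe arrays alone (44) or with array weights (37) all belonged to these 68.

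The mutated gene came first. URI (AT3G19860) had log2 intensities of 7.84 and 7.64 in uri +Fe roots, against 8.73 and 8.78 in WT +Fe roots. Both uri arrays were below both WT arrays, and the transcript was reduced but still measured. The log2 difference was −1.02 ± 0.12 (SE, 2 arrays per group, adjusted p = 0.000752), and it stayed between −1.12 and −0.92 whichever array was left out. Among the 20 measured genes on each side of URI in the gene order of the RefSeq assembly TAIR10.1, 0 of 40 were called in limma's test, against 3.22% of all single-gene probe sets. At an unadjusted p under 0.05 were 6 of the 40, and the log2 differences of the 40 ran from −0.36 to 0.40. On the arrays labelled uri −Fe the same probe set differed from WT −Fe by −0.05 and was not called, so URI does not check the genotype of those arrays.

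No other measured iron regulator passed the test with iron. The list of iron regulators held 15 measured genes, of which URI alone was lower and 0 were higher, with a median log2 difference of −0.16, against 0.008 over all single-gene probe sets. POPEYE (PYE), the bHLH repressor closest to URI, had log2 intensities of 6.42 and 6.31 in uri +Fe roots, against 6.80 and 6.72 in WT +Fe roots. Both uri values were lower, and the difference of −0.40 ± 0.13 missed the threshold (adjusted p = 0.125). The URI partners ILR3, bHLH104 and bHLH115 differed by −0.28, −0.16 and −0.15, and bHLH34 by 0.07. The subgroup Ib genes bHLH39 and bHLH101 differed by −0.23 and −0.11, the E3 ligase gene BTS by 0.02 and the signal peptide gene IMA1 by 0.26. Of these, bHLH39 and IMA1 were below the lower quartile of all values in both genotypes. FIT, bHLH38, bHLH100 and FRO2 were not analysed here.

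The transport and coumarin genes that the cascade drives also gave no call. IRT1, the main root iron importer, had log2 intensities of 5.63 and 5.34 in uri +Fe roots, against 5.06 and 5.58 in WT +Fe roots. The groups overlapped, and the difference was 0.16 with a 95% interval of −0.26 to 0.58. Of 5 uptake genes, 5 vacuolar sequestration genes and 10 coumarin genes, 0, 0 and 0 were called in limma's test. Of all single-gene probe sets 3.22% were called, so lists this small would hold few calls in any case. At an unadjusted p under 0.05 were 1, 0 and 2 of their members, and the list medians were 0.20, −0.07 and 0.12. F6'H1, the entry enzyme of coumarin synthesis, differed by 0.09, with an interval of −0.18 to 0.37. Changes inside these intervals cannot be seen with 2 arrays per group. In the comparison without iron, which shares no array with this one, 4 of the 5 uptake genes and 10 of the 10 coumarin genes were lower on arrays labelled uri −Fe than in WT −Fe, against a background of 14.9% of single-gene probe sets.

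**Figure D1:**
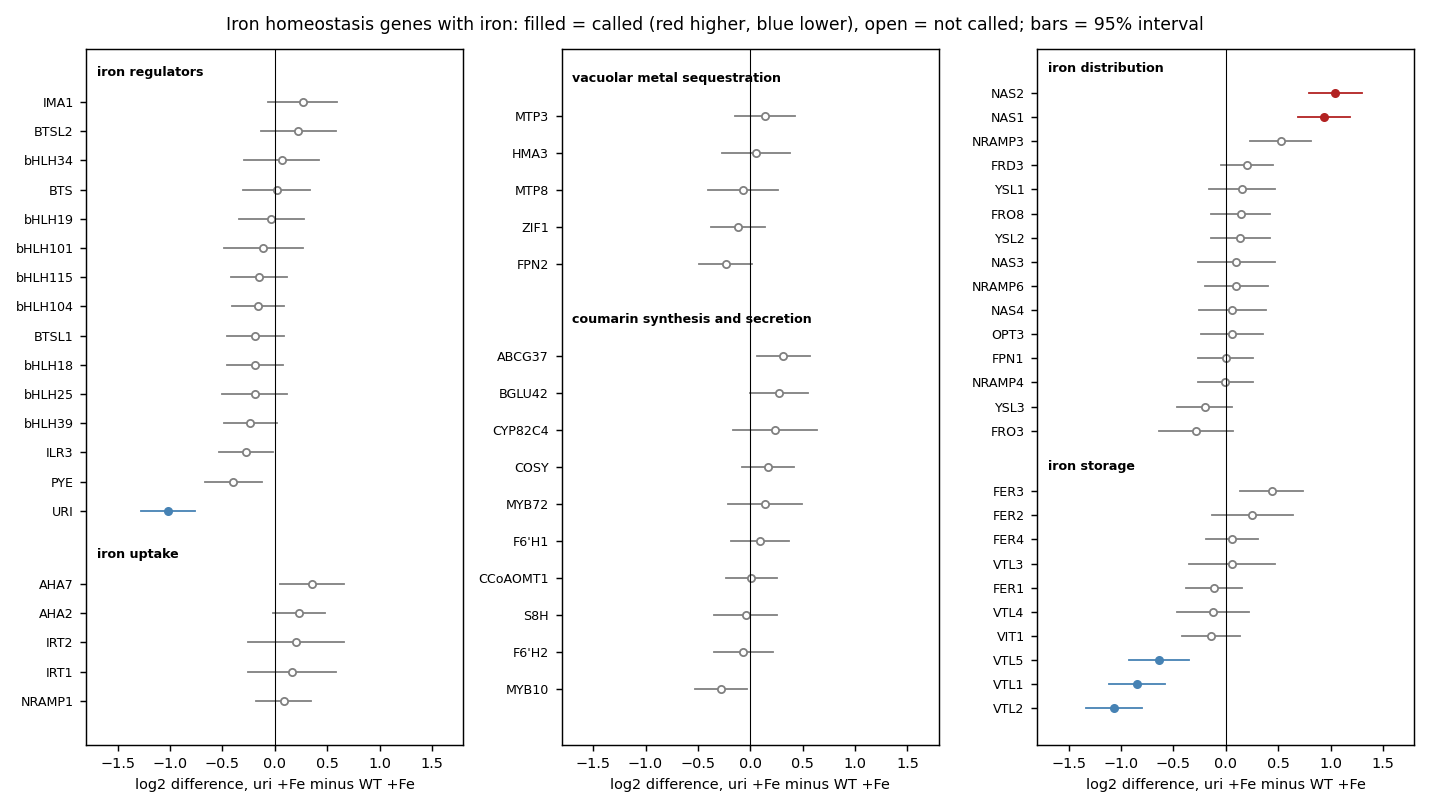
Log2 difference between uri +Fe and WT +Fe roots (x axis) for 60 iron homeostasis genes in 6 lists. Points are estimates from 2 arrays per group, bars are 95% intervals, and filled points passed the test: URI, VTL5, VTL1 and VTL2 were lower and NAS2 and NAS1 higher, while the uptake, sequestration and coumarin genes had no filled point.

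The iron genes that did differ belonged to storage and distribution. VTL genes encode relatives of the vacuolar iron importer VIT1 that carry iron into the vacuole. VTL2 had log2 intensities of 7.64 and 7.45 in uri +Fe roots, against 8.73 and 8.49 in WT +Fe roots. VTL1 had 8.51 and 8.38 in uri +Fe roots, against 9.23 and 9.35 in WT +Fe roots. The uri arrays were below the WT arrays for both genes, by −1.07 ± 0.12 for VTL2 (adjusted p = 0.000752) and −0.85 ± 0.12 for VTL1 (adjusted p = 0.00316). VTL5 was lower by −0.63 (adjusted p = 0.0228), a call lost without WT +Fe array 1 (adjusted p = 0.0685), without WT +Fe array 2 (adjusted p = 0.123) and without uri +Fe array 2 (adjusted p = 0.134). The other 7 of the 10 storage genes were not called. They include the ferritin genes FER1, FER2 and FER4 at −0.11, 0.25 and 0.06, and FER3 at 0.44 (adjusted p = 0.121).

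Nicotianamine is the metal chelator with which iron moves between cells and through the phloem, and NAS genes encode its synthases. NAS1 had log2 intensities of 9.94 and 9.91 in uri +Fe roots, against 8.96 and 9.01 in WT +Fe roots. NAS2 had 9.63 and 9.62 in uri +Fe roots, against 8.56 and 8.60 in WT +Fe roots. Replicates lay close together, and both genes were higher in uri, by 0.94 ± 0.11 for NAS1 (adjusted p = 0.00106) and 1.04 ± 0.12 for NAS2 (adjusted p = 0.000573). NAS3 and NAS4, the other synthase genes, differed by 0.10 and 0.06. NAS1 and NAS2 were the only 2 called of 15 measured distribution genes, and the vacuolar iron exporter gene NRAMP3 stood at 0.52 (adjusted p = 0.057). Without iron both were called lower. NAS1 differed by −2.15 and NAS2 by −0.50 between arrays labelled uri −Fe and WT −Fe.

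The 43 gene lists were chosen with earlier results of these data known, so their ranking is a description. Among them flavonoid synthesis had the highest median difference, and its rises lay in the flavonol branch. Flavonols are phenolic antioxidants built from phenylpropanoid precursors, and in roots they also affect auxin transport. Of 13 measured flavonoid genes 9 were higher in uri +Fe and 0 lower, against 1.37% and 1.85% of all single-gene probe sets. Their median log2 difference was 1.21. TT5, chalcone isomerase, had log2 intensities of 10.72 and 10.91 in uri +Fe roots, against 8.56 and 8.73 in WT +Fe roots. TT7, which hydroxylates the flavonoid B ring, had 8.59 and 8.76 in uri +Fe roots, against 6.60 and 6.69 in WT +Fe roots. FLS1, flavonol synthase, had 11.35 and 11.55 in uri +Fe roots, against 9.47 and 9.45 in WT +Fe roots. In each of these genes the uri arrays stood about 2 log2 units above the WT arrays and the groups were far from overlapping. The differences were 2.17 ± 0.14 for TT5 (adjusted p = 1.73e-05), 2.03 ± 0.14 for TT7 (adjusted p = 2.44e-05) and 1.99 ± 0.13 for FLS1 (adjusted p = 1.9e-05).

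Other steps of the flavonol branch rose with them. The glycosyltransferase genes UGT78D1 and UGT78D2, which add rhamnose and glucose to flavonols, were higher by 1.73 ± 0.16 and 1.43 ± 0.15. CHIL, which encodes a chalcone isomerase-like protein, was higher by 1.36 and F3H, flavanone 3-hydroxylase, by 1.21. MYB12, the root regulator of flavonol genes, had log2 intensities of 8.75 and 9.09 in uri +Fe roots, against 7.65 and 7.89 in WT +Fe roots, a difference of 1.15 ± 0.15 (adjusted p = 0.0015). TT4, chalcone synthase, was higher by 0.56, a call lost without WT +Fe array 1 (adjusted p = 0.165), without WT +Fe array 2 (adjusted p = 0.0773) and without uri +Fe array 1 (adjusted p = 0.0632). The other 4 measured genes gave no call: DFR, the first step of the anthocyanin branch, at −0.24, the anthocyanin regulator MYB75 at −0.04, and the flavonol regulators MYB11 and MYB111 at −0.19 and 0.05. MYB11, MYB75 and MYB111 were among the dim probe sets.

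Several of the largest rises outside the list act next to this pathway or carry sugar to phenolics. 4CL3 encodes the 4-coumarate:CoA ligase associated with flavonoid synthesis. It had log2 intensities of 8.73 and 9.17 in uri +Fe roots, against 6.55 and 6.87 in WT +Fe roots, a difference of 2.24 ± 0.23 (adjusted p = 0.000301). Among 16 general phenylpropanoid and lignin genes 4CL3 and PAL1 were called, PAL1 at 0.52, a call lost without any 1 of WT +Fe array 1 (adjusted p = 0.102), WT +Fe array 2 (adjusted p = 0.126) and uri +Fe array 2 (adjusted p = 0.136). AT2G23910, annotated as related to cinnamoyl-CoA reductase, had 9.13 and 9.07 in uri +Fe roots, against 6.81 and 6.94 in WT +Fe roots, a difference of 2.22. The largest rise of all, 2.85 ± 0.29, was at AT2G22590, annotated as a glycosyltransferase, with 7.24 and 7.52 in uri +Fe roots, against 4.27 and 4.80 in WT +Fe roots. Its WT mean was below the lower quartile of all values, so the size of this rise is less sure than its direction.

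Glycosyltransferase genes with a UGT symbol in the RefSeq table were counted as a family after the values had been seen. AT2G22590 has no such symbol and is not among them. Of 53 measured UGT genes 8 were higher and 1 lower, against 1.37% and 1.85% of all single-gene probe sets, with a family median of 0.09. The 8 include UGT78D1 and UGT78D2 of the flavonoid list. UGT84A1 and UGT84A2 glucosylate hydroxycinnamates such as sinapate. UGT84A1 was higher by 2.05 ± 0.21, and UGT84A2 had log2 intensities of 8.33 and 8.56 in uri +Fe roots, against 6.93 and 6.96 in WT +Fe roots (adjusted p = 0.000521). UGT73B4 and UGT87A2 were higher by 1.51 ± 0.13 and 1.13 ± 0.15. The rise of these 4 was kept in all alternatives run. Those of UGT71B1 (0.68) and UGT74D1 (0.68) were lost without WT +Fe array 1 (adjusted p = 0.321 and 0.179) and without uri +Fe array 2 (adjusted p = 0.237 and 0.117), and the fall of UGT71C3 (−0.66) without WT +Fe array 1 (adjusted p = 0.0607).

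Genes of the light response rose as well, although the tissue was root. ELIP proteins bind chlorophyll and protect plastids from excess light. ELIP1 had log2 intensities of 9.15 and 9.65 in uri +Fe roots, against 6.88 and 7.23 in WT +Fe roots. ELIP2 had 7.90 and 8.14 in uri +Fe roots, against 6.27 and 6.42 in WT +Fe roots. HYH, a bZIP factor related to HY5, had 7.10 and 6.78 in uri +Fe roots, against 5.68 and 5.90 in WT +Fe roots. In all 3 genes both uri arrays were clearly above both WT arrays, with differences of 2.35 ± 0.24, 1.67 ± 0.20 and 1.15 ± 0.13. RUP2, a repressor of the UV-B receptor, was higher by 0.62, a call lost without WT +Fe array 1 (adjusted p = 0.148) and without uri +Fe array 2 (adjusted p = 0.0863). HY5 itself, a light-response regulator that also controls flavonoid genes, was flat at 0.11 (interval −0.18 to 0.41), BBX22 stood at 0.32 and RUP1 at −0.02. Thus 4 of 7 light genes were called higher, against 1.37% of all single-gene probe sets, with a list median of 0.62. The nuclear photosynthesis genes lay the other way, as their lower summed intensity in uri +Fe shows. How much light the roots of each genotype received is not given in the labels, and its part in these values was not tested.

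**Figure D2:**
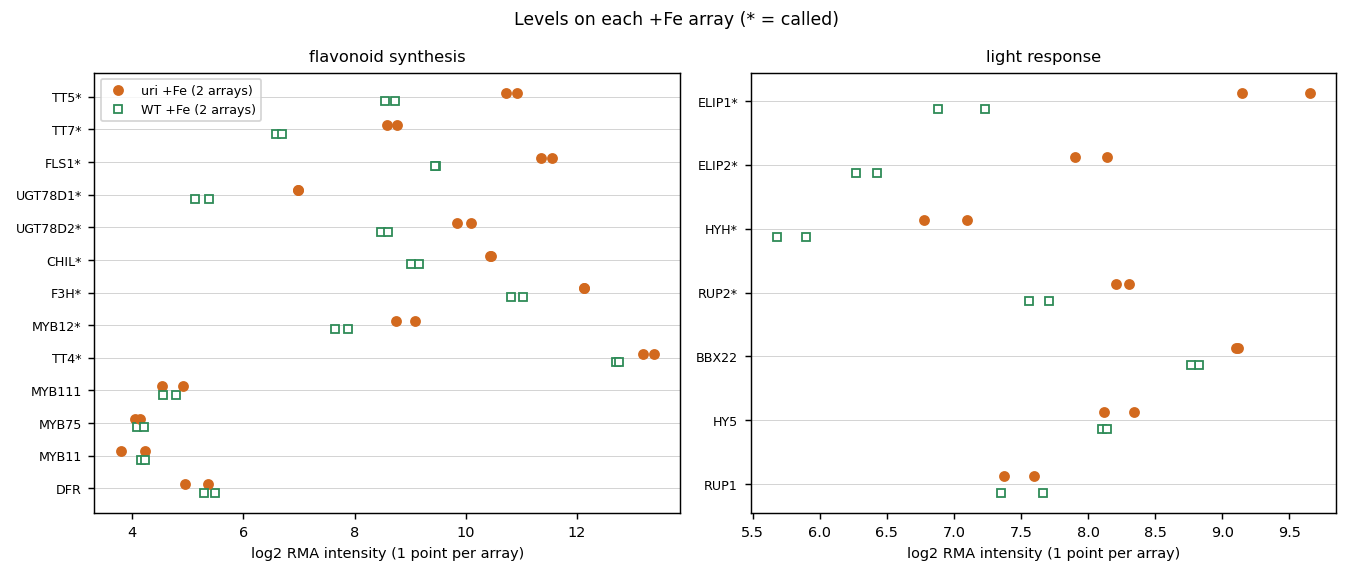
Log2 RMA intensity (x axis) of 13 flavonoid genes and 7 light-response genes on each +Fe array, with uri +Fe as filled circles and WT +Fe as open squares. Starred genes passed the test. For TT5, TT7, FLS1 and ELIP1 the circles stand about 2 log2 units to the right of the squares, while DFR, MYB75, HY5 and RUP1 overlap or nearly touch.

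Genes that mark sulfate limitation rose as well. Plants short of sulfate raise sulfate importers and the APS reductases that commit sulfate to cysteine synthesis, together with SDI and LSU genes of the low-sulfur response. Of 14 measured genes 10 were higher in uri +Fe and 0 lower, against 1.37% and 1.85% of all single-gene probe sets. Their median log2 difference was 0.87. SDI1 had log2 intensities of 7.65 and 7.87 in uri +Fe roots, against 5.95 and 6.29 in WT +Fe roots. LSU1 had 6.60 and 7.01 in uri +Fe roots, against 5.05 and 5.67 in WT +Fe roots. APR3, an APS reductase gene, had 9.02 and 9.42 in uri +Fe roots, against 7.91 and 7.98 in WT +Fe roots. The uri arrays were above the WT arrays for each, by 1.64 ± 0.15 for SDI1 (adjusted p = 0.000145), 1.44 ± 0.20 for LSU1 and 1.27 ± 0.15 for APR3.

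APR1, the second reductase gene with a call kept in all alternatives, was higher by 1.02 ± 0.12. The third, APR2, had log2 intensities of 9.86 and 10.46 in uri +Fe roots, against 8.92 and 9.20 in WT +Fe roots. It lost its call without WT +Fe array 1 (adjusted p = 0.0859), as did the vascular sulfate transporter gene SULTR2;1 at 1.00 (adjusted p = 0.0665) and the root importer gene SULTR1;2 at 0.73 (adjusted p = 0.0838). LSU2 at 1.28 and SDI2 at 0.73 lost theirs without WT +Fe array 2 (adjusted p = 0.145 and 0.101) and without uri +Fe array 2 (adjusted p = 0.111 and 0.0976). SHM7, a serine hydroxymethyltransferase gene, was close to the threshold at 0.48 (adjusted p = 0.0455) and lost its call without WT +Fe array 1 (adjusted p = 0.198), WT +Fe array 2 (adjusted p = 0.126) or uri +Fe array 2 (adjusted p = 0.19). Of the 4 genes without a call, GGCT2;1 (0.49) and SULTR4;2 (0.39) were higher on both uri arrays, BGLU28 was dim at 0.08 and SULTR1;1 overlapped at −0.01. The count of 10 was 6 without WT +Fe array 1, 7 without WT +Fe array 2, 11 without uri +Fe array 1 and 7 without uri +Fe array 2, each time with no fall.

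Nitrate assimilation, which shares reductant and amino acid sinks with sulfate, showed a smaller shift. Of 18 measured genes 4 were higher (1.37% of all single-gene probe sets) and 0 lower, with a median of 0.17. G6PD3, which supplies NADPH in root plastids, had log2 intensities of 9.94 and 10.11 in uri +Fe roots, against 9.28 and 9.13 in WT +Fe roots, a difference of 0.82 ± 0.12 (adjusted p = 0.00296). Nitrite reductase NIR1 (0.72), the nitrate transporter NRT1.1 (0.58) and nitrate reductase NIA2 (0.47) were also higher. Without WT +Fe array 1 only G6PD3 stayed called, and the adjusted p became 0.0586 for NIR1, 0.163 for NRT1.1 and 0.22 for NIA2, while the count was 2 without uri +Fe array 2. The high-affinity transporter genes NRT2:1 and NRT2:2 stood at 0.34 and 0.37 without a call.

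Among the same 43 lists, the lowest median difference was that of genes switched on by darkness and low sugar. These DIN, DRM and SEN genes and the enzymes of branched-chain amino acid breakdown mark cells that draw on reserves. Of 21 measured genes 11 were lower in uri +Fe and 1 was higher, against 1.85% and 1.37% of all single-gene probe sets. The list median was −0.70, but 7 of the 21 had a positive log2 difference. Both uri arrays lay below both WT arrays for 14 of the 21 and above for 5, against 19.8% and 21.4% of all single-gene probe sets. DIN3, a subunit of the branched-chain keto acid dehydrogenase, had log2 intensities of 9.34 and 9.48 in uri +Fe roots, against 10.65 and 10.76 in WT +Fe roots. TPS11, a class II trehalose-phosphate synthase gene, had 9.13 and 8.88 in uri +Fe roots, against 10.30 and 10.05 in WT +Fe roots. MCCA, which carries leucine breakdown further, had 9.60 and 9.66 in uri +Fe roots, against 10.77 and 10.73 in WT +Fe roots. Each was lower on both uri arrays by more than a log2 unit: −1.30 ± 0.12 for DIN3 (adjusted p = 0.000146), −1.17 ± 0.13 for TPS11 and −1.12 ± 0.11 for MCCA.

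IVD, the isovaleryl-CoA dehydrogenase of the same breakdown route, was lower by −1.06, DIN10, a raffinose synthase-like gene, by −0.96, and SEN1 by −0.90. The dormancy-associated genes DRM2 and DRM1 were lower by −0.89 and −0.81. TPS8 was lower by −1.12, a call lost without WT +Fe array 1 (adjusted p = 0.0857). TPS9 (−0.70) lost its call without WT +Fe array 2 (adjusted p = 0.0985) and without uri +Fe array 2 (adjusted p = 0.0986). GAT1_2.1 (−0.91), a glutamine amidotransferase gene, lost its call without WT +Fe array 1 (adjusted p = 0.0704), WT +Fe array 2 (adjusted p = 0.0726) or uri +Fe array 2 (adjusted p = 0.0683). The single rise, BGLU30 (0.57), a dark-induced beta-glucosidase gene, lost its call without WT +Fe array 1 (adjusted p = 0.248), uri +Fe array 1 (adjusted p = 0.0717) or uri +Fe array 2 (adjusted p = 0.0733). ASN1, the asparagine synthetase gene often used to read out sugar starvation, was at −0.39 (adjusted p = 0.116). Leaving out any 1 of the 4 +Fe arrays left 9 to 11 members lower.

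**Figure D3:**
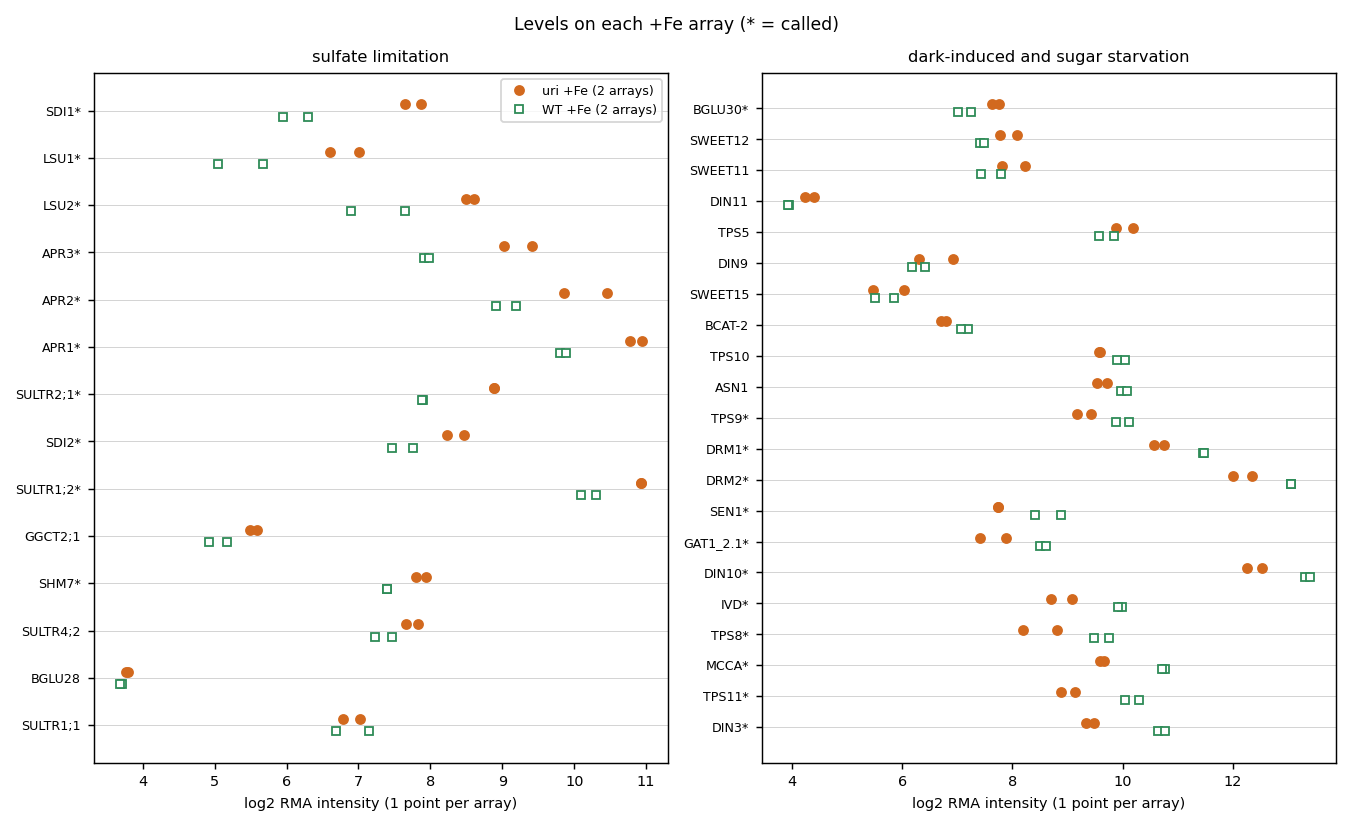
Log2 RMA intensity (x axis) of 14 sulfate limitation genes and 21 dark-induced and sugar starvation genes on each +Fe array, with uri +Fe as filled circles and WT +Fe as open squares. Starred genes passed the test. Circles lie to the right of squares for the 10 starred sulfate genes and to the left for 11 of the 12 starred genes in the other panel.

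The largest falls named cell wall, amino acid transport and lipid genes. DGAT3 (AT1G48300), a soluble diacylglycerol acyltransferase that carries an iron-sulfur cluster, had log2 intensities of 8.95 and 8.74 in uri +Fe roots, against 11.34 and 11.17 in WT +Fe roots. BXL2, a beta-xylosidase gene, had 9.48 and 9.04 in uri +Fe roots, against 11.26 and 11.51 in WT +Fe roots. These were the 2 largest falls, −2.42 ± 0.14 (adjusted p = 9.29e-06) and −2.12 ± 0.18 (adjusted p = 9.77e-05), with the groups far apart. BXL1, a second of 3 measured genes with a BXL symbol, was lower by −0.99 ± 0.13. Of 14 measured beta-galactosidase genes with a BGAL symbol, BGAL2 (−1.61 ± 0.15), BGAL1 (−1.05 ± 0.13) and BGAL4 (−0.93 ± 0.14) were lower and 0 were higher. Of all single-gene probe sets 1.85% were lower. UGE3, which interconverts UDP-glucose and UDP-galactose, was lower by −1.61 ± 0.20, with uri +Fe arrays at 6.57 and 5.78 and WT +Fe arrays at 7.67 and 7.89. These calls were kept in all alternatives run.

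UMAMIT proteins carry amino acids across membranes, mostly as exporters. Of 35 measured UMAMIT genes 5 were lower and 1 higher, against 1.85% and 1.37% of all single-gene probe sets. UMAMIT20 had log2 intensities of 7.91 and 7.76 in uri +Fe roots, against 9.36 and 9.59 in WT +Fe roots, a difference of −1.63 ± 0.12 (adjusted p = 4.27e-05). UMAMIT17 (−1.46 ± 0.13) and UMAMIT14 (−1.32 ± 0.13) were lower with it, and these 3 calls were kept in all alternatives run. UMAMIT10 (−0.60), UMAMIT29 (−0.54) and UMAMIT11 (0.51) were close to the threshold, with adjusted p-values of 0.0429, 0.0366 and 0.0495, and lost their calls without WT +Fe array 1 (adjusted p = 0.0914, 0.125 and 0.161), and likewise without WT +Fe array 2 (adjusted p = 0.196, 0.146 and 0.176) and without uri +Fe array 2 (adjusted p = 0.0717, 0.111 and 0.239). UMAMIT10 and UMAMIT29 also lost theirs without uri +Fe array 1 (adjusted p = 0.0994 and 0.0606).

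Among the remaining large falls, AT3G56360 had log2 intensities of 8.56 and 8.50 in uri +Fe roots, against 10.10 and 10.16 in WT +Fe roots. AT5G05250, which the annotation lists as similar to AT3G56360, had 4.48 and 5.05 in uri +Fe roots, against 6.29 and 6.04 in WT +Fe roots. Both were lower, by −1.60 ± 0.12 and −1.40 ± 0.17. AT1G80380, annotated as related to phosphoribulokinase and uridine kinase, was lower by −1.54, AT1G19530 by −1.56 and AT5G56100, annotated as a glycine-rich protein or oleosin, by −1.33. Marneral synthase MRN1, a triterpene enzyme gene, was lower by −1.32, a call lost without WT +Fe array 2 (adjusted p = 0.0704) and without uri +Fe array 2 (adjusted p = 0.058). AT2G17850 (−1.31) and AT1G33055 (−1.75) lost their calls without WT +Fe array 1 (adjusted p = 0.0586 and 0.18). AT1G33055 lost its call also with a trend and robust variances, and it had the widest gap between uri +Fe replicates, 9.21 and 7.79.

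A pair of genes of the root-tip iron and aluminium module rose. ALMT1 releases malate, and LPR1 is a ferroxidase of the root tip, and both act on iron in the apoplast of the tip. ALMT1 had log2 intensities of 8.12 and 8.29 in uri +Fe roots, against 6.94 and 7.05 in WT +Fe roots. LPR1 had 8.28 and 8.81 in uri +Fe roots, against 7.11 and 7.12 in WT +Fe roots. The uri arrays were above the WT arrays in both, by 1.21 ± 0.13 (adjusted p = 0.000301) and 1.43 ± 0.16 (adjusted p = 0.000685), and both calls were kept in all alternatives run. The other 5 of the 7 genes gave no call, among them STOP1, the transcription factor of the module, at −0.16, LPR2 at −0.34 and the citrate exporter gene MATE at −0.28.

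Oxidative stress and detoxification genes were higher in 5 of 14 cases (1.37% of all single-gene probe sets) and lower in 0, with a median of 0.40. ZAT10, a stress zinc finger gene, had log2 intensities of 8.24 and 7.80 in uri +Fe roots, against 6.92 and 6.99 in WT +Fe roots, a difference of 1.06 ± 0.15. GSTU24, a tau-class glutathione transferase gene, was higher by 0.98 ± 0.14. BCS1 (0.93) and the alternative NAD(P)H dehydrogenase gene NDB2 (0.78) lost their calls without WT +Fe array 1 (adjusted p = 0.0868 and 0.0804), and so did GSTU25 (0.74, adjusted p = 0.232), leaving 2 of the 5. Among tau-class genes with a GSTU symbol, counted after the values had been seen, 7 of 27 measured were higher (1.37% of all single-gene probe sets) and 0 lower. The 7 include GSTU24 and GSTU25. Of these, GSTU25, GSTU22, GSTU20, GSTU5 and GSTU4 lost their calls without WT +Fe array 1 (adjusted p of 0.116 to 0.299). GSTU20 and GSTU5 also lost theirs without WT +Fe array 2 (adjusted p = 0.066 and 0.0981), these and GSTU4 without uri +Fe array 1 (adjusted p of 0.0852 to 0.126), and GSTU25 without uri +Fe array 2 (adjusted p = 0.127). Of 20 iron-requiring enzyme genes 3 were higher, among them NIR1 and NIA2, which are also in the nitrate list above. The ferredoxin gene FD1 led them at 0.83 ± 0.12 (adjusted p = 0.0034). The count was 1 without WT +Fe array 1 and 2 without any 1 of the other +Fe arrays, with 1 fall appearing without uri +Fe array 1. None of 15 iron-sulfur cluster assembly genes was called in limma's test (2 at an unadjusted p under 0.05), against 3.22% of all single-gene probe sets.

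Genes of the Casparian strip, the lignin barrier of the endodermis, were lower. Of 9 measured genes 5 were lower and 0 higher, against 1.85% and 1.37% of all single-gene probe sets, with a median of −0.50. CASP5, which encodes a membrane scaffold protein of the strip, had log2 intensities of 5.97 and 5.55 in uri +Fe roots, against 7.05 and 6.96 in WT +Fe roots, a difference of −1.24 ± 0.15 (adjusted p = 0.000925). CASP4 (−0.82), CASP2 (−0.72), the dirigent protein gene ESB1 (−0.65) and CASP1 (−0.50) lost their calls without WT +Fe array 1 (adjusted p = 0.11, 0.246, 0.217 and 0.23) and without uri +Fe array 2 (adjusted p = 0.075, 0.137, 0.187 and 0.212). Without WT +Fe array 2, CASP4, ESB1 and CASP1 lost theirs (adjusted p = 0.0554, 0.087 and 0.102). CASP5 alone stayed called without WT +Fe array 1 or uri +Fe array 2. MYB36, the regulator of the strip, was at −0.01. In whole roots, fewer cells of a type and less RNA per cell cannot be told apart. The suberin list, another endodermal product, had 1 call of 13, FAR1 at −0.75, which was lost without WT +Fe array 1 (adjusted p = 0.0604).

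Vascular and water transport genes leaned the same way. SEOR1, a protein of phloem sieve elements, had log2 intensities of 8.24 and 8.24 in uri +Fe roots, against 8.88 and 9.01 in WT +Fe roots, a difference of −0.70 ± 0.12 (adjusted p = 0.0065). SUC2, the phloem sucrose loader, was lower by −0.61, a call lost without WT +Fe array 1 (adjusted p = 0.0665), WT +Fe array 2 (adjusted p = 0.11) or uri +Fe array 2 (adjusted p = 0.0863). The summed linear intensity of the 5 phloem markers was 1767 to 1843 on uri +Fe arrays and 2337 to 2518 on WT +Fe arrays. That of the 11 xylem markers was 2813 to 2998 on uri +Fe arrays and 3164 to 3871 on WT +Fe arrays. Of the xylem markers COBL4 (−0.56) and CESA7 (−0.49) were called, and neither was without any 1 of the 4 +Fe arrays. Of 15 aquaporin genes 3 were lower, against 1.85% of all single-gene probe sets, with a median of −0.31. PIP2;4 (−0.73 ± 0.12) kept its call, and TIP2;3 (−0.76) and PIP1;5 (−0.52) lost theirs without WT +Fe array 1 (adjusted p = 0.0892 and 0.112), WT +Fe array 2 (adjusted p = 0.088 and 0.121) or uri +Fe array 2 (adjusted p = 0.0857 and 0.144). What part cell numbers had in these values was not tested.

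Low-oxygen genes were lower on both uri arrays in 12 of 12 cases, against 19.8% of all single-gene probe sets, but their calls rested on single arrays. Of the 12, 7 were called lower, against 1.85% of all single-gene probe sets, and the median was −0.65. SUS4, a sucrose synthase gene, had log2 intensities of 10.16 and 9.68 in uri +Fe roots, against 11.07 and 10.67 in WT +Fe roots. HRE1, an ethylene response factor of hypoxia, had 9.25 and 8.85 in uri +Fe roots, against 10.12 and 9.82 in WT +Fe roots. In both genes array 1 was the higher of each pair, and the differences were −0.95 ± 0.17 and −0.92 ± 0.16. Without WT +Fe array 1, or without uri +Fe array 2, 0 of the 12 were called, and the adjusted p of SUS4 was 0.119 and 0.0669. The classical markers ADH1 (−0.50) and PDC1 (−0.44) were not called in the full data.

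Of the 30 nuclear photosynthesis genes PSAN, PSAG and LHCA3 were lower, by −0.64, −0.59 and −0.49, and 0 were higher. The list median was −0.20, and 0 of the 30 were called without WT +Fe array 2 or without uri +Fe array 2. Transcripts of the plastid genome had a median of −0.20 and 1 call of 72, which was not made with the +Fe arrays alone. Those of the mitochondrial genome had 0 calls of 49 in limma's test (2 at an unadjusted p under 0.05) and a median of −0.05. Of all single-gene probe sets 3.22% were called. Lists for copper, zinc and phosphate homeostasis, root hairs, meristem regulators, cell division, jasmonate, salicylate defence, abscisic acid, auxin, cytokinin and heat shock had no called member among 158 measured genes in limma's test. At an unadjusted p under 0.05 were 35 of the 158, against 3648 of all 22746 probe sets. Among the 158, the water stress gene RAB18 was at 0.93 and not called. Calls were also made for xyloglucan transglucosylases (3 of 16 lower), ethylene (3 of 15 lower), glucosinolate synthesis (2 of 18 higher) and pattern-triggered defence (1 of 10 higher). Of all single-gene probe sets 1.85% were lower and 1.37% higher. Most of the calls in these lists were lost without WT +Fe array 1.

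**Figure D4:**
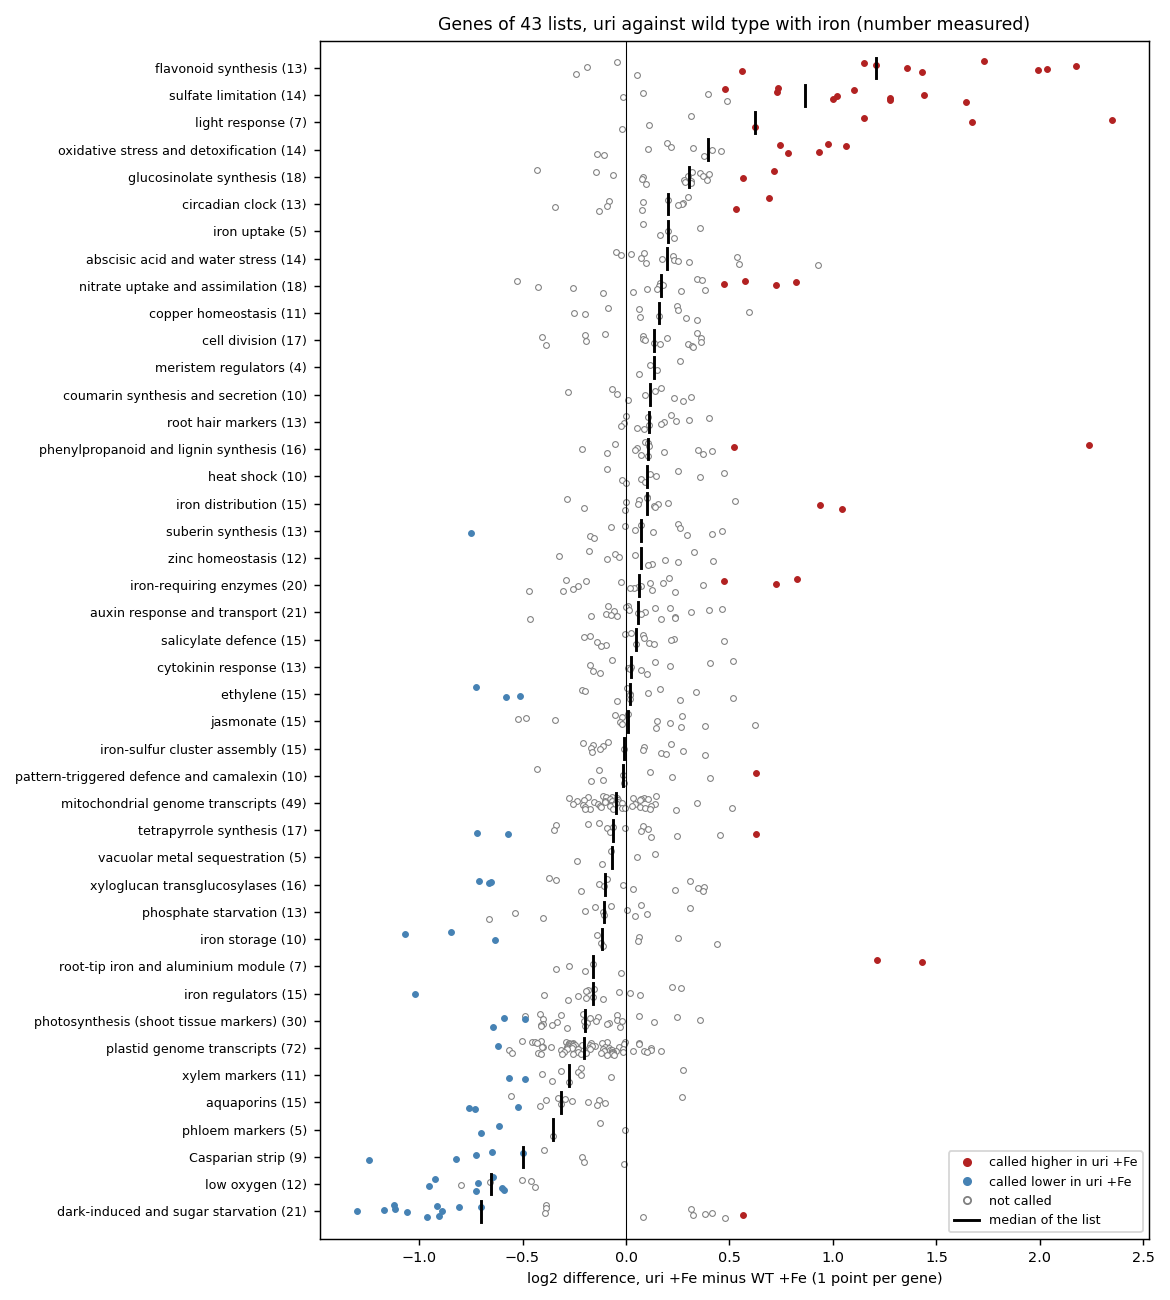
Log2 difference between uri +Fe and WT +Fe roots (x axis) for each measured gene of 43 lists, ordered by list median (black bars); red points were called higher and blue points lower. Flavonoid and sulfate limitation genes stand at the top, with medians of 1.21 and 0.87, and low-oxygen and dark-induced genes at the bottom, with medians of −0.65 and −0.70. The lists were chosen with earlier results of these data known, so their order is a description.

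The genes that differed with iron were then read in the comparison of arrays labelled uri −Fe with WT −Fe, where 27.4% of single-gene probe sets were called (12.5% higher, 14.9% lower). That comparison uses the other 4 arrays. Of the 291 genes higher with iron, 82 were higher, 105 lower and 104 not called without iron. Of the 392 genes lower with iron, 176 were higher, 101 lower and 115 not called. The interaction term, which tests whether the genotype difference differs between the −Fe and the +Fe arrays, was called for 198 (68.0%) of the 291 and 286 (73.0%) of the 392, against 21% of all single-gene probe sets. In the sample titles the array numbers of the −Fe and of the +Fe arrays form separate series, and what the numbers stand for is not given. For this term, iron supply cannot be told apart from anything else that differs between the −Fe and the +Fe arrays. Over all probe sets 26.6% were called without iron and 20.4% for the interaction. The term shares the +Fe arrays that chose these genes, so its share among them is a description.

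The flavonoid, sulfate limitation and dark-induced lists did not keep their shift without iron. Of the 13 flavonoid genes 0 were higher and 6 lower on arrays labelled uri −Fe, and of the 14 sulfate limitation genes 1 was higher and 6 lower. TT5 differed by −0.83, FLS1 by −1.17 and SDI1 by −0.81 there. Of the 21 dark-induced genes 19 were higher and 1 lower, with SEN1 at 4.89 and DIN3 at 2.48. The interaction term was called for 9, 12 and 20 members of these lists. Low-oxygen and Casparian strip genes, in contrast, were mostly lower without iron too. Of the 12 low-oxygen genes 7 were lower and 2 higher on arrays labelled uri −Fe, with a median of −0.81, and of the 9 Casparian strip genes 7 were lower and 1 higher, with a median of −0.56. The interaction term was called for 6 and 1 of them. Some genes did differ in the same direction at both supplies. ALMT1 was higher by 3.43 and UGT73B4 by 2.41 without iron, and DGAT3 (−1.30), VTL1 (−0.73), UMAMIT17 (−1.23), AT3G56360 (−1.72) and AT5G05250 (−4.53) were lower without iron too.

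**Figure D5:**
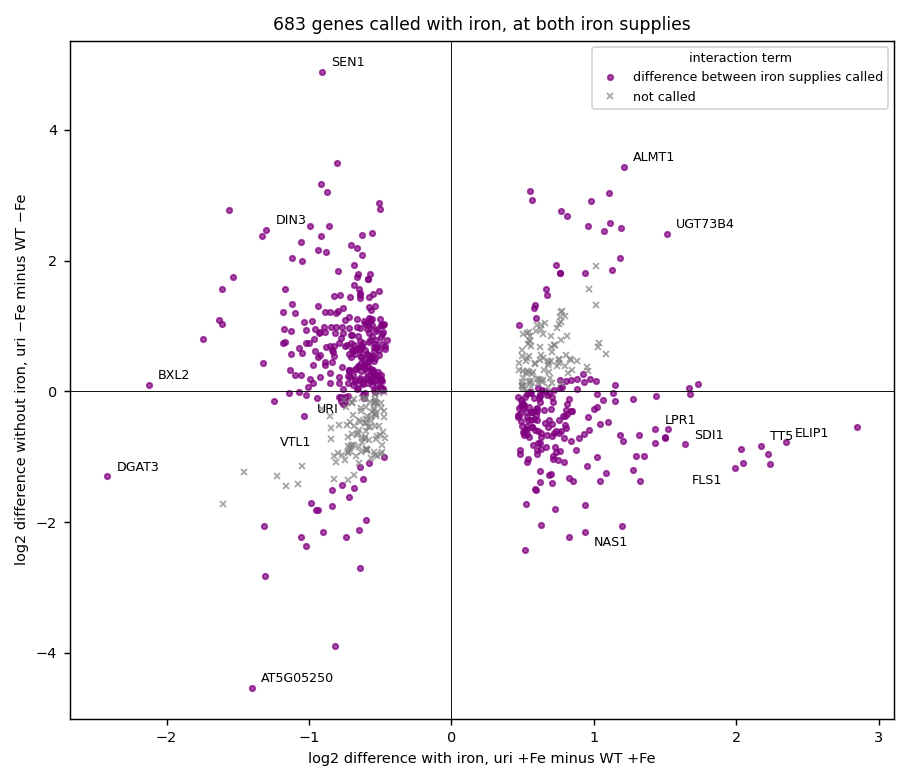
Log2 difference between uri and WT with iron (x axis) and between arrays labelled uri −Fe and WT −Fe (y axis) for the 683 genes called with iron. Filled circles mark genes whose difference changed between the +Fe and the −Fe arrays by the interaction term. Flavonoid genes such as TT5 and FLS1 lie at the lower right, DIN3 and SEN1 at the upper left, and DGAT3 and AT5G05250 at the lower left.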

How the data were processed

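Arabidopsis root RNA was measured on 8 single-colour Affymetrix arrays. The authors deposited 1 intensity per probe set and array. The submitters' processing notes name RMA, which corrects background, equalises arrays and sums probes into sets, with no version given in the sources used here. The values were linear, with medians of 119.09 to 128.06, and log2 was taken here. A deposited workbook of the same intensities differed by at most 5e-06. The files held 22810 probe sets, from which 64 controls were removed, and the deposited annotation gave 1 gene for 21180, several for 1039 and none for 527. Names came from it and from the RefSeq table, which held 20798 of the 21019 genes; 158 genes with several probe sets were represented by the one with the highest mean.

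All 8 arrays entered 1 fit in limma 3.58.1 (R 4.3.3), with a mean per group, 4 residual degrees of freedom and a prior of 8.32. Two-sided p-values were adjusted over 22746 probe sets by Benjamini and Hochberg and called under 0.05; the same fit gave the contrast without iron and the interaction. The fit was tested on simulated arrays with 200 changed probe sets. At 1.5-fold it called 65.5% of them in the right direction, and 7.75% of its calls were false. At 2-fold the shares were 99.5% and 6.57%. The simulation gave each probe set the same spread in all groups, although the +Fe pairs were looser than the −Fe pairs.

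The 43 gene lists (543 of 598 loci written by name were measured) and the comparison were chosen with earlier results of these data known. The naming rule took all iron regulators, 15 rises, 15 falls, up to 4 members of each list by size and the 8 widest gaps between uri +Fe arrays. Members of the gene families were those with the family symbol in the RefSeq table. No sequence was used, and the order of genes around URI came from the RefSeq table. Alternatives were a replicate block, centring, quantile normalisation, a filter on dim probe sets, moderation with a trend and robust variances, array weights, the +Fe arrays alone, the workbook values, single-gene probe sets alone and each array left out. The count of 2-fold calls was added after seeing the data. Figures were drawn with matplotlib 3.10.9.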

Additional observations from a re-analysis of the deposited data

Results flagged for a closer look

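Results of the genotype comparison were marked where the interaction term of limma's fit was called, that is where the difference between uri and WT changed between the +Fe and the −Fe arrays. Values here are the log2 difference on the −Fe arrays minus that on the +Fe arrays. The groups have 2 arrays, too few to look for a single array that stands apart. For URI the value was 0.97, because its transcript was lower in uri +Fe roots but not on the arrays labelled uri −Fe.

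Among the 15 largest rises with iron, the value was negative for AT2G22590 (−3.39), 4CL3 (−3.35), AT2G23910 (−3.18), FLS1 (−3.16), UGT84A1 (−3.14), ELIP1 (−3.12), TT5 (−3.00), TT7 (−2.92), SDI1 (−2.45), UGT84A2 (−2.22), KAT5 (−2.10), ELIP2 (−1.71), UGT78D1 (−1.61) and AT2G16890 (−1.61), and positive for UGT73B4 (0.90). Among the 15 largest falls it was positive for AT1G19530 (4.33), AT5G56100 (3.71), AT1G80380 (3.29), UGE3 (3.17), UMAMIT20 (2.72), BGAL2 (2.64), AT1G33055 (2.55), BXL2 (2.23), MRN1 (1.76) and DGAT3 (1.12). It was negative for AT5G05250 (−3.13), AT2G17850 (−1.52) and UMAMIT14 (−0.75).

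By list, the interaction was called for 11 of 15 iron regulators, 5 of 5 uptake genes, 10 of 10 coumarin genes, 7 of 15 distribution genes, 12 of 14 sulfate limitation genes, 9 of 13 flavonoid genes, 5 of 7 light-response genes, 20 of 21 dark-induced genes and 25 of 30 photosynthesis genes, against 21% of all single-gene probe sets.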

How the results depend on the processing

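URI was lower under all alternatives run. The 709 calls of the comparison with iron became 1113 with a trend and robust variances, 364 with array weights and 295 from the +Fe arrays alone, and ran from 179 to 1379 with 1 array left out, over all 8 arrays. The 2-fold calls (104) ran from 90 to 162 and the URI difference from −1.12 to −0.92. The count without iron (6057) ran from 3609 to 6833 and that of the interaction (4637) from 2849 to 4937 with 1 array left out. Other alternatives reached 7899 without iron (array weights) and 5133 (trend and robust variances) and 5018 (dim probe sets left out) for the interaction. Deviations of replicates with the same number in uri +Fe and WT +Fe had a correlation of −0.223. With 2 arrays per group this single value cannot decide whether the numbers pair the arrays. The replicate block gave 610 calls, 104 of them 2-fold, and a URI difference of −1.02. It gave 5830 calls without iron and 4376 for the interaction. Of 209 named genes beside URI none changed direction past the threshold in any alternative, while 39 lost their call without WT +Fe array 1, 33 without uri +Fe array 2 and 26 without WT +Fe array 2, and 26 gained one without uri +Fe array 1. The cause was not tested. Probe sets near the dim end limit what small differences of bHLH39, IMA1 and MYB11 can show.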

Other observations

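The 8 widest gaps between the uri +Fe arrays, at AT1G33055, RABH1d, AT4G10270, AT5G43730, SDH8, OHP, AT4G23493 and AT5G10040, all had the higher value on array 1.

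KAT5, a 3-ketoacyl-CoA thiolase gene of fatty acid breakdown, had log2 intensities of 10.37 and 10.28 in uri +Fe roots, against 8.83 and 8.78 in WT +Fe roots, a difference of 1.52 ± 0.12 (adjusted p = 4.34e-05). GI, a clock and flowering gene, was higher by 0.69 and PRR5 by 0.53, the 2 calls among 13 clock genes. Both calls were lost without WT +Fe array 1 (adjusted p = 0.0827 and 0.144), without WT +Fe array 2 (0.0531 and 0.0888) and without uri +Fe array 2 (0.0665 and 0.0726). Of 17 tetrapyrrole genes CHLH (0.63) was higher and CHLM (−0.72) and PORB (−0.57) were lower; these are magnesium-branch genes of chlorophyll synthesis, and all 3 calls were lost without WT +Fe array 1 (adjusted p = 0.083, 0.0674 and 0.163).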
